A study of Mus musculus with 36 samples.

Results

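LPS-matured cDC2 were compared with LPS-matured cDC1 over all genes, with 3 libraries on each side. The 6 libraries were taken by their labels, the FLT3LcDC2 cells given LPS (replicates 4, 5 and 6) and the FLT3LcDC1 cells given LPS (replicates 1, 2 and 3), out of 36 libraries in the series. The series measured messenger RNA of these 2 kinds of conventional dendritic cell, both induced from mouse bone marrow with FLT3 ligand, after nothing, LPS, PGPC, alum, LPS with PGPC, or LPS with alum. LPS, which TLR4 senses, comes from the outer membrane of bacteria, and PGPC is an oxidized phospholipid. Genotype, strain, age, LPS dose, time of exposure and any sort or gate of the cells are not given in the labels, and the series' design text calls the 3 replicates of a group biological. The question was which differences between the subsets were present in the mature state, and which of these were already there without treatment, so the untreated cells of both kinds (replicates 1 to 3 of cDC1, 4 to 6 of cDC2) were compared in the same way.

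Conventional dendritic cells carry antigen from tissue to lymph nodes and present it to T cells. The cDC1 subset depends on the transcription factors IRF8 and BATF3, takes up dead cells through receptors such as CLEC9A and presents their antigens to CD8 T cells. The cDC2 subset is usually recognised by SIRPA and depends in part on IRF4, and it is better known for priming CD4 T cells. On sensing LPS both raise costimulatory molecules, cytokines and the lymph node homing receptor CCR7, a change called maturation.

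Total counts were 1416289 to 9484976 in the cDC1 libraries with LPS and 980502 to 1892082 in the cDC2 libraries with LPS, so the deepest library, replicate 1, was on the cDC1 side. They held 12607 to 15648 and 11995 to 13424 genes with a count. By rank correlation replicate 4 of cDC2 with LPS stood apart: its Spearman rho with the other 2 libraries of its group was 0.837 and 0.865, and with the 3 cDC1 libraries it was 0.834 to 0.858. The other 2 cDC2 libraries correlated at 0.917 with each other and at 0.786 to 0.848 with the cDC1 libraries, and the 3 cDC1 libraries at 0.939 to 0.957. On the first 2 principal components (axes of largest spread) of the 500 most variable genes, replicate 4 lay with its group. These were taken over the untreated and LPS-treated libraries. The feature CT010467.1, treated here as ribosomal RNA, took 11.2% to 23.4% of counts in cDC1 with LPS, 18.4% to 19.7% in cDC2 with LPS, 24.3% to 41% in untreated cDC1 and 23.7% to 33.5% in untreated cDC2. Replicate 6 of untreated cDC2 held 243870 counts. In these bulk samples, fewer cells of a type and less RNA per cell cannot be told apart.

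Levels below are CPM, which are counts as parts of a library total that was scaled by TMM and set to the same size in every library, not corrected for gene length, and the 3 values of a group stand in the order of its replicate numbers. Log2 fold changes are cDC2 minus cDC1, followed by ± and a standard error, with n = 3 libraries a group. A gene is called where its Benjamini-Hochberg adjusted p over all tested genes, from edgeR's quasi-likelihood test, was under 0.05. The p-values and standard errors rest on a spread between libraries that was estimated per gene over all 23 libraries of the fit. These stand in 8 groups, those with PGPC included. A standard error is therefore not the scatter of the 3 values of a group printed beside it.

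With LPS 971 of 12463 tested genes (7.79%) were called between the subsets, 696 higher in cDC2 (5.58%) and 275 lower (2.21%). All 3 cDC2 libraries lay above all 3 cDC1 libraries for 1674 genes (13.4%) and below them for 1680 (13.5%), and 2678 genes (21.5%) had an unadjusted p under 0.05. These shares over all tested genes are the background for the list counts below. Without replicate 4 of cDC2 with LPS 1395 genes were called, of which 61.6% were higher in cDC2 against 71.7% with it. Without replicate 6 the share was 81.8%. The count dropped to 497 without replicate 1 and to 626 without replicate 2 of cDC1 with LPS. When all 36 libraries entered the fit, those with alum included, and shared 1 estimate of spread per gene, 300 genes were called, all 300 of them among the 971.

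Without treatment 1266 genes (10.2%) were called, 497 higher (3.99%) and 769 lower (6.17%) in cDC2. Of these, 39.3% were higher, a share of 49.9% with no filter on low counts and 50.3% with CT010467.1, other ribosomal RNA and mitochondrial genes left out. The 2 contrasts use different libraries. A difference called in the same direction without treatment and with LPS is said here to persist. There were 285 such genes, which is 29.4% of the LPS calls and 22.5% of the untreated calls. Of genes higher in cDC2, 167 persisted, which is 24% of the LPS calls and 33.6% of the untreated calls in that direction. Of genes lower in cDC2, 118 persisted, which is 42.9% and 15.3%. The persisting count dropped to 179 without replicate 1 of cDC1 with LPS and to 172 without replicate 5 of untreated cDC2.

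A call in one state and not in the other does not show a change, so the change of the difference with LPS was tested as an interaction. It was called for 166 genes (1.33%), toward cDC2 for 124 (0.995%) and toward cDC1 for 42 (0.337%). The median of all tested genes in this contrast was 0.19, and it was 0.03 with CT010467.1 left out. In that setting 60.4% of 169 calls went toward cDC2, against 74.7% here. Among the LPS calls, 80 genes higher in cDC2 and 16 lower had an interaction call in the same direction. Of these, 70 and 14 were not called without treatment: these are the differences that appeared with LPS by a test of the change itself. In the other direction, 26 genes higher in cDC2 without treatment and 48 lower moved the other way, and 23 and 43 of these were not called with LPS. Genes called in opposite directions in the 2 states numbered 7, all of which had an interaction call.

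**Figure D1:**
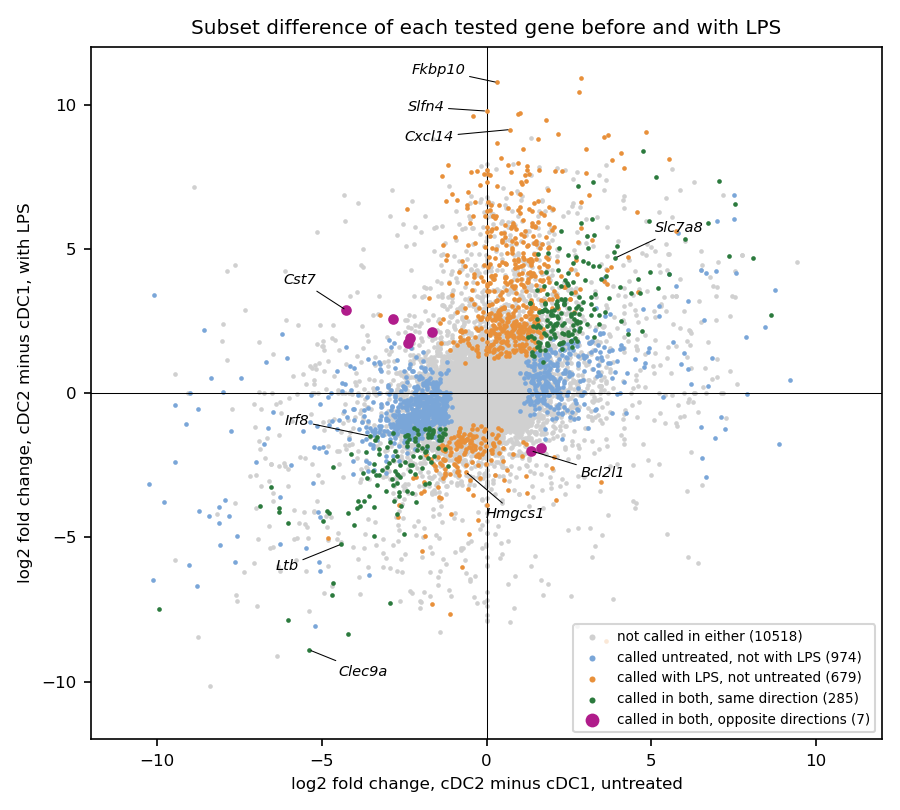
Each point is 1 of the 12463 tested genes, with its log2 fold change (cDC2 minus cDC1) without treatment on the x axis and with LPS on the y axis, coloured by where it was called. The 285 genes called in both states in the same direction lie in the upper right and lower left, the 7 called in opposite directions are the larger points, and genes such as Fkbp10, Slfn4 and Cxcl14 lie near 0 on the x axis and at the top of the y axis.

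The labels were first checked against the markers of each subset. Of 18 cDC1 markers 7 were lower in cDC2 with LPS (Clec9a, Irf8, Cadm1, Itgae, Naaa, Wdfy4 and Cd24a) and 1 was higher (Tlr3), with a median log2 fold change of -1.98 against -0.04 over all tested genes. Without treatment 7 were lower and 1 higher, and 6 of the 7 were lower in both states. The summed level of the list was 591 to 847 CPM in cDC1 and 215 to 409 CPM in cDC2 with LPS, against 1380 to 2000 and 280 to 370 CPM without treatment. The number of lower markers was 4 without replicate 1 or without replicate 2 of cDC1 with LPS, and 3 without replicate 5 or without replicate 6 of cDC2 with LPS. The list therefore separated the subsets in the mature state, with a lower level in mature than in untreated cDC1.

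Cadm1, an adhesion molecule of cDC1, had 35.7, 28.4 and 32.9 CPM in cDC1 and 4.6, 4.3 and 4.88 CPM in cDC2 with LPS. The groups did not overlap, and the log2 fold change was -2.82 ± 0.53 (adjusted p = 0.00111). Naaa, a lysosomal lipid amidase typical of cDC1, had 19.5, 20.7 and 25.9 CPM against 1.53, 3.77 and 4.88 CPM, a log2 fold change of -2.76 ± 0.65 (adjusted p = 0.00755). Cd24a, a surface glycoprotein used to tell cultured cDC1 from cDC2, had 24.3, 33.1 and 42 CPM against 4.09, 5.38 and 7.81 CPM (-2.56 ± 0.53, adjusted p = 0.00237). All 3 were also lower in untreated cDC2 (log2 fold changes of -2.18 ± 0.49, -3.76 ± 0.65 and -3.03 ± 0.51).

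Irf8, the factor that directs cDC1 development, had 322, 223 and 169 CPM in cDC1 and 104, 82.8 and 65.4 CPM in cDC2 with LPS. The groups did not overlap and the log2 fold change was -1.50 ± 0.43 (adjusted p = 0.0316), but the call was lost without replicate 1 or 2 of cDC1 or replicate 5 or 6 of cDC2 with LPS (adjusted p up to 0.176). Without treatment Irf8 had 1329, 808 and 560 CPM against 61.2, 73.2 and 104 CPM, a log2 difference of -3.53 ± 0.47 (adjusted p = 5.52e-05), and the change between the states was 2.04 ± 0.61 (adjusted p = 0.106). Batf3, its partner in cDC1, was called only without treatment, with 41.2, 38.8 and 23.1 CPM against 1.07, 0 and 3.73 CPM. With LPS Batf3 had 7.13, 6.5 and 8.23 CPM against 0.511, 3.23 and 5.86 CPM, a difference of -1.31 ± 0.74 on the log2 scale (adjusted p = 0.327), and its change between the states had an adjusted p of 0.0741. Clec9a had 21.8, 5.32 and 2.35 CPM in cDC1 with LPS and no count in cDC2, at least 4.85-fold lower (adjusted p = 0.015). Its call was lost without replicate 1 of cDC1 or any 1 library of cDC2 with LPS (adjusted p up to 0.111). Xcr1, the chemokine receptor that marks cDC1, had 26.5, 11.2 and 2.35 CPM against 3.07, 3.23 and 0 CPM and was not called (adjusted p = 0.286).

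The cDC2 side of the label was followed only in part. Of 15 tested cDC2 markers Sirpa and Clec12a were higher in cDC2 with LPS and Ltb was lower, with a median log2 fold change of -0.15. Sirpa, an inhibitory receptor that binds CD47, had 886, 756 and 598 CPM in cDC1 and 3916, 980 and 1439 CPM in cDC2, where the highest library was replicate 4. Its log2 fold change of 1.50 ± 0.46 (adjusted p = 0.0449) was no longer called without that library or without any 1 of the cDC1 libraries (adjusted p up to 0.321). Irf4 had 7.22, 5.91 and 10.3 CPM in cDC1 and 2.04, 6.99 and 4.88 CPM in cDC2 with LPS, values that overlapped (-0.77 ± 0.58, adjusted p = 0.491). Without treatment Irf4 was lower in cDC2, with 17.2, 20.3 and 37 CPM against 2.4, 5.41 and 0 CPM (-2.84 ± 0.60, adjusted p = 0.00325). Klf4 and Itgam were not called with LPS, and Cd209a had no count in either group. The samples are called cDC2 here as their labels name them.

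**Figure D2:**
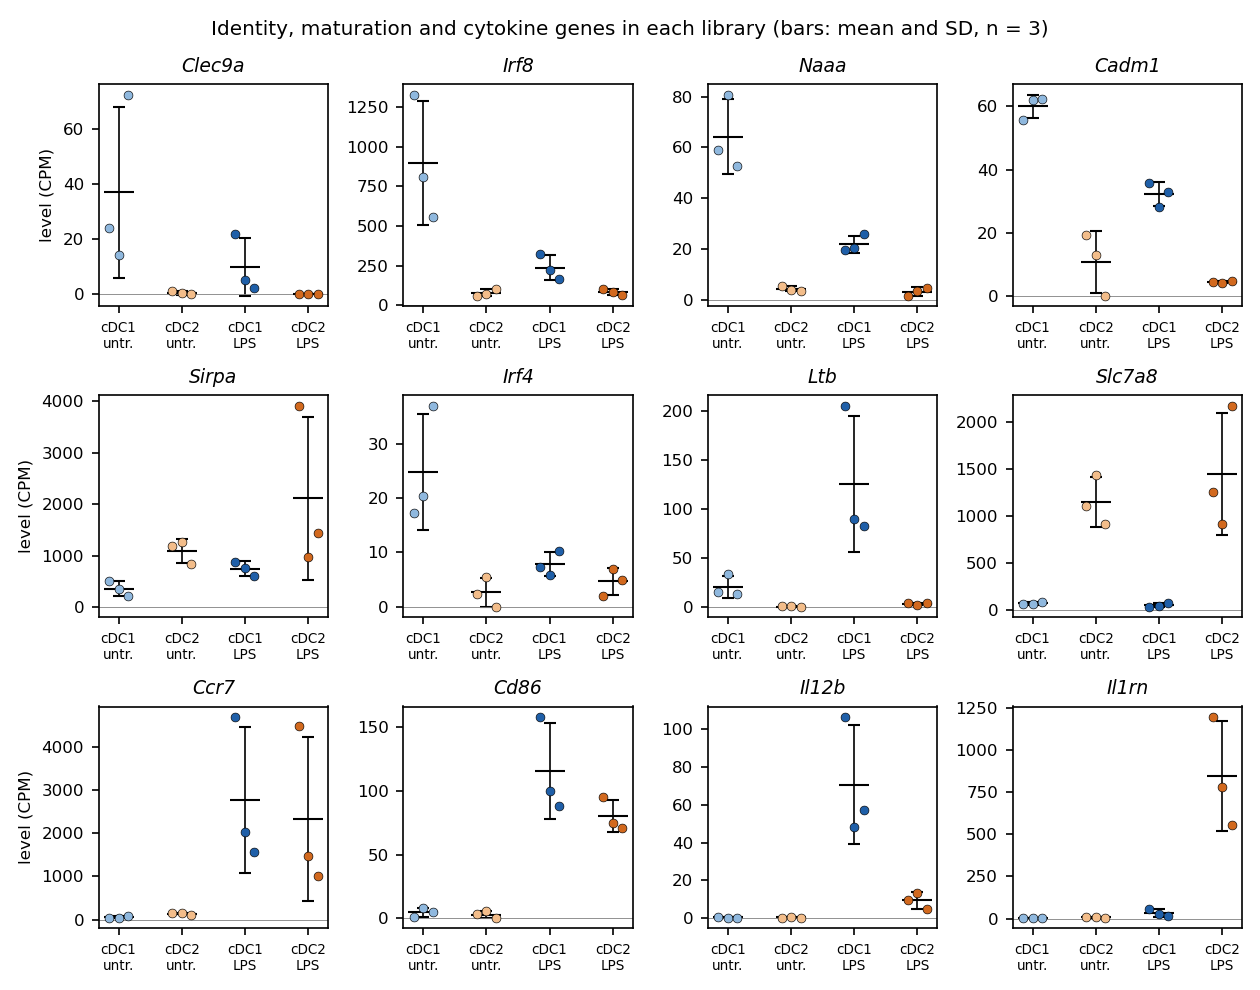
Levels in CPM (y axis) of 12 genes in each library of untreated and LPS-treated cDC1 (replicates 1 to 3) and cDC2 (replicates 4 to 6), with the mean and SD of each group. The cDC1 genes Clec9a, Irf8, Naaa and Cadm1 are higher in cDC1 in both states, Irf4 is not higher in cDC2, Ccr7 and Cd86 overlap between the subsets with LPS, and Il12b and Il1rn separate them in opposite directions with LPS.

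Differences that persisted included genes of transport, signalling and antigen handling. Slc7a8, a carrier of large neutral amino acids, had 38.9, 49.6 and 81.4 CPM in cDC1 and 1260, 919 and 2176 CPM in cDC2 with LPS. Its log2 fold change of 4.68 ± 0.48 (adjusted p = 1.44e-06) stood beside 3.90 ± 0.47 without treatment, and the change between the states was 0.78 ± 0.59 (adjusted p = 0.611). Slc16a10, a carrier of aromatic amino acids, had 25.3, 38.4 and 60.8 CPM against 284, 331 and 764 CPM (3.47 ± 0.48, adjusted p = 5.24e-05). Anpep, the aminopeptidase CD13, had 10.2, 11.8 and 11.5 CPM against 154, 202 and 354 CPM (4.41 ± 0.43, adjusted p = 7.15e-07), and Stab1, a scavenger receptor, had 12.6, 8.86 and 13.5 CPM against 188, 71.5 and 123 CPM (3.43 ± 0.48, adjusted p = 6.09e-05). None of these groups overlapped with LPS, and the log2 fold changes without treatment were 4.66 ± 0.50, 3.42 ± 0.41 and 3.30 ± 0.47.

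Among the persisting genes lower in cDC2, Ltb, which encodes lymphotoxin beta, a membrane cytokine that shapes lymphoid tissue, had 206, 89.8 and 82.5 CPM in cDC1 and 4.09, 2.15 and 3.91 CPM in cDC2 with LPS. Its log2 fold change was -5.24 ± 0.58 (adjusted p = 3.96e-06), against -4.40 ± 0.65 without treatment, where levels were 15.4, 34.1 and 13.8 against 1.07, 1.03 and 0 CPM. Ltb stood on the cDC2 marker list, so this marker went against the label in both states. Bcl11a, a transcription factor of plasmacytoid and pre-dendritic cells, had 100, 89.8 and 114 CPM against 5.11, 6.99 and 4.88 CPM (-4.14 ± 0.71, adjusted p = 0.000483). Herpud1, a protein of the endoplasmic reticulum stress response, had 258, 284 and 226 CPM against 24, 32.3 and 28.3 CPM (-3.18 ± 0.48, adjusted p = 0.000127). Slc46a3, a lysosomal transporter, had 53.4, 43.1 and 52.3 CPM against 6.13, 11.3 and 5.86 CPM (-2.65 ± 0.39, adjusted p = 0.000112). The log2 fold changes without treatment were -4.77 ± 0.77, -3.33 ± 0.50 and -3.18 ± 0.40.

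The 7 genes that were called in opposite directions were chosen after their values were seen. Bcl2l1, which encodes the survival protein BCL-XL, had 403, 163 and 151 CPM in cDC1 and 69.5, 52.2 and 57.6 CPM in cDC2 with LPS (-2.00 ± 0.41, adjusted p = 0.00229). Without treatment it had 17.2, 32.1 and 23 CPM against 68.7, 71.7 and 41 CPM (1.35 ± 0.41, adjusted p = 0.0373). The cDC1 libraries were thus higher with LPS and lower without it, and the change of the difference was -3.35 ± 0.58 (adjusted p = 0.00521). Sepsecs, an enzyme of selenocysteine synthesis, also went from higher to lower in cDC2 (log2 fold changes of 1.65 and -1.91). The other 5 went from lower to higher: Cst7, a cystatin that restrains cathepsins (-4.27 and 2.88), Bst2, the antiviral membrane protein tetherin (-1.66 and 2.12), Enpp4 (-2.83 and 2.58), Spata13 (-2.31 and 1.92) and Rnaset2a (-2.38 and 1.73). Cst7 had 5.61, 4.13 and 3.23 CPM in cDC1 and 14.3, 46.2 and 37.1 CPM in cDC2 with LPS, and 3.43, 9.72 and 8.91 against 0.802, 0 and 0 CPM without treatment. Rnaset2a and its near-identical copy may share reads, so its value is uncertain.

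Among differences that were present without treatment and changed with LPS, Tnf, the inflammatory cytokine, had 1.72, 1.39 and 4.08 CPM in untreated cDC1 and 12.6, 24.2 and 7.46 CPM in untreated cDC2 (2.69 ± 0.55, adjusted p = 0.0025). With LPS Tnf overlapped, at 249, 142 and 151 CPM in cDC1 and 113, 209 and 135 CPM in cDC2 (-0.25 ± 0.45, adjusted p = 0.818). The interaction was -2.93 ± 0.71 (adjusted p = 0.0357), and it was no longer called without replicate 1 or 2 of cDC1 with LPS, replicate 1 or 2 of untreated cDC1, replicate 6 of cDC2 with LPS, or replicate 4 or 5 of untreated cDC2 (adjusted p up to 0.185). Ccl22, a chemokine for regulatory T cells, had 3.43, 2.52 and 11.3 CPM in cDC1 and 31, 32.2 and 22.4 CPM in cDC2 without treatment. With LPS it had 2380, 1347 and 1344 CPM in cDC1 and 1068, 1233 and 812 CPM in cDC2, where the cDC2 libraries were the lower ones but the difference was not called (-0.70 ± 0.46, adjusted p = 0.404). Its interaction was -2.98 ± 0.69 (adjusted p = 0.0263), which was lost without replicate 1 of cDC1 with LPS, replicate 1 or 2 of untreated cDC1, replicate 6 of cDC2 with LPS, or replicate 4 or 5 of untreated cDC2 (adjusted p up to 0.0822).

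Among cytokines, 4 of 18 tested members were higher in mature cDC2 (Il1a, Il1rn, Il15 and Csf1) and 2 were lower (Il12b and Ltb). Over all tested genes 5.58% were higher and 2.21% lower. Il1rn, which encodes the antagonist of the IL-1 receptor, had 57.5, 26 and 15.6 CPM in cDC1 and 1199, 781 and 556 CPM in cDC2 (4.66 ± 0.91, adjusted p = 0.00155). Csf1, the growth factor of macrophages, had 5.7, 7.09 and 20.6 CPM against 102, 105 and 146 CPM (3.40 ± 0.51, adjusted p = 0.000131). Il12b, the chain shared by IL-12 and IL-23, had 107, 48.4 and 57 CPM in cDC1 and 9.71, 13.4 and 4.88 CPM in cDC2 (-2.89 ± 0.72, adjusted p = 0.0114). None of these 3 overlapped between the subsets, and the Il12b call was lost without replicate 1 of cDC1 or replicate 6 of cDC2 with LPS (adjusted p up to 0.0794).

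Other T cell polarizing and inflammatory cytokines were not called. Il6 had 29.1, 39 and 51.7 CPM in cDC1 and 29.6, 76.4 and 50.8 CPM in cDC2, and Il1b had 278, 194 and 227 CPM against 272, 672 and 451 CPM, both with overlapping groups (adjusted p of 0.785 and 0.404). Il10, an anti-inflammatory cytokine, had 5.26, 4.72 and 6.17 CPM against 8.18, 7.53 and 10.7 CPM (0.70 ± 1.19, adjusted p = 0.803). Il12a, the partner chain of IL-12, was at 5.38 CPM or less in each library of both groups.

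Of 21 chemokine ligands, 9 were higher in mature cDC2 and none was lower in edgeR or DESeq2 (none at an unadjusted p under 0.05 either): Ccl2, Ccl5, Ccl7, Cxcl5, Cxcl10, Cxcl11, Cxcl12, Cxcl14 and Pf4. The list median was 1.44, and the count was 5 without replicate 1 of cDC1 and 4 without replicate 5 of cDC2 with LPS. Cxcl11, a ligand of the chemokine receptor CXCR3 of T cells, had 0.178, 0 and 0.588 CPM in cDC1 and 9.71, 38.7 and 20.5 CPM in cDC2 (6.32 ± 1.23, adjusted p = 0.00289). Ccl7, a monocyte attractant, had 0.0891, 0.591 and 0.588 CPM against 11.8, 30.7 and 13.7 CPM (5.80 ± 1.06, adjusted p = 0.000773). Both were near 0 in each cDC1 library. Ccl5, which draws T cells and is abundant in mature dendritic cells, had 1062, 769 and 896 CPM against 2084, 4268 and 2620 CPM (1.72 ± 0.41, adjusted p = 0.00832), and lost its call without replicate 5 of cDC2 with LPS (adjusted p = 0.0556). Cxcl14, a chemokine mostly of epithelial and stromal cells, had no count in the 3 mature cDC1 libraries and 12.3, 9.68 and 14.7 CPM in cDC2, at least 12.5-fold higher (adjusted p = 1.13e-05). Without treatment Cxcl14 had 8.58, 14.8 and 15.7 CPM against 21.1, 19.6 and 26.1 CPM and was not called, and the change was called (adjusted p = 0.00143).

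Of 26 tested maturation and migration genes, Cd200 and Il15ra were higher in cDC2 and Cd83 was lower, a share not below the 7.79% called over all tested genes, and the list median was -0.27. Ccr7, the receptor that guides mature cells to lymph nodes, had 4694, 2018 and 1568 CPM in cDC1 and 4487, 1467 and 1005 CPM in cDC2 with LPS, against 39.5, 40.9 and 82.2 and 151, 149 and 116 CPM without it. The LPS values of the subsets overlapped (-0.25 ± 0.52, adjusted p = 0.845). The costimulatory genes Cd40, Cd80 and Cd86 had log2 fold changes of -0.51 ± 0.50, -0.96 ± 0.72 and -0.53 ± 0.45 (adjusted p of 0.624, 0.486 and 0.553), and Fscn1, which bundles actin in mature dendritic cells, had 0.49 ± 0.42 (adjusted p = 0.55). Cd83, a maturation marker that stabilises MHC class II, had 328, 540 and 588 CPM against 179, 200 and 226 CPM (-1.27 ± 0.38, adjusted p = 0.0401), which was lost without replicate 2 or 3 of cDC1 or any 1 library of cDC2 with LPS (adjusted p up to 0.189). Il15ra, which presents IL-15 to T and NK cells, had 6.33, 8.86 and 9.99 CPM against 31.2, 110 and 81 CPM (3.15 ± 0.63, adjusted p = 0.0017).

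Of 23 inhibitory and regulatory genes 5 were higher in mature cDC2 (Cd274, Cd200, Lgals9, Nos2 and Ptges) and Btla was lower. Cd274, which encodes the checkpoint ligand PD-L1, had 105, 132 and 177 CPM in cDC1 and 607, 859 and 1216 CPM in cDC2 (2.70 ± 0.47, adjusted p = 0.000495), and it persisted from 1.95 ± 0.47 without treatment. Ptges, the prostaglandin E synthase, had 14.3, 24.2 and 20.6 CPM against 331, 247 and 296 CPM (3.90 ± 0.68, adjusted p = 0.000498). Nos2, the inducible nitric oxide synthase, had 0.267, 0.591 and 0 CPM against 178, 20.4 and 19.5 CPM (8.11 ± 1.43, adjusted p = 0.00108), with replicate 4 the highest. Btla, an inhibitory receptor of the lymphotoxin network, had 186, 120 and 85.8 CPM in cDC1 and 22.5, 11.8 and 16.6 CPM in cDC2 (-2.94 ± 0.51, adjusted p = 0.000538). Lgals9, a galectin, overlapped, at 46.3, 24.8 and 67.6 CPM against 64.9, 2009 and 1248 CPM, with replicate 4 of cDC2 at the level of cDC1 (4.57 ± 0.92, adjusted p = 0.00197).

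Interferon-stimulated genes encode antiviral and antigen-processing proteins and are switched on through the interferon receptor after TLR4 signals. Of 48 tested, 15 were higher in mature cDC2 and none was lower in edgeR or DESeq2. At an unadjusted p under 0.05, 32 were higher and 0 lower. All 3 cDC2 libraries were above all cDC1 libraries for 31, as for 13.4% of all tested genes, and the list median was 1.65. The summed level was 5510 to 8900 CPM in cDC1 and 19600 to 23600 CPM in cDC2 with LPS, against 721 to 905 and 575 to 2800 CPM without treatment, where replicate 5 of cDC2 was the highest. These summed levels were apart with LPS and overlapped without it. Gene by gene, 18 were higher and 2 lower without treatment, where the list median was 2.19, and 7 were higher in both states. An interaction call toward cDC2 was held by 2 members, and toward cDC1 by 0. The count of 15 was 8 without replicate 1 and 9 without replicate 2 of cDC1 with LPS. It was 4 with all 36 libraries in the fit, 25 with the libraries of the compared groups alone and 28 with no filter on low counts.

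Cmpk2, a mitochondrial nucleotide kinase induced by interferon, had 55.6, 83.3 and 106 CPM in cDC1 and 1559, 1798 and 2526 CPM in cDC2 with LPS (4.59 ± 0.79, adjusted p = 0.000498). Ifi44 had 16.7, 7.09 and 5.88 CPM against 81.8, 169 and 140 CPM (3.67 ± 0.65, adjusted p = 0.000844). The guanylate binding protein gene Gbp4 had 30.6, 37.2 and 37.9 CPM against 302, 140 and 209 CPM (2.62 ± 0.54, adjusted p = 0.00219), though reads of near-identical Gbp genes may be split between copies. Irgm2, an immunity GTPase, had 50.3, 26.6 and 17.6 CPM against 64.9, 373 and 296 CPM (2.94 ± 0.65, adjusted p = 0.00453), with replicate 4 of cDC2 the lowest of its group. Mx2, a dynamin-like antiviral GTPase, had 13.4, 2.95 and 8.81 CPM against 44, 39.8 and 54.7 CPM (2.39 ± 0.55, adjusted p = 0.00576). Slfn4, a schlafen gene of myeloid cells, was outside the list. It had 1 count in the 3 cDC1 libraries and 87.9, 55.9 and 66.4 CPM in cDC2 with LPS, a ratio of 1160 with a 95% counting interval of 207 to 45900 (adjusted p = 3.09e-05), and no count in untreated cells of either kind.

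Rsad2, which encodes viperin, had 59.4, 77.4 and 69 CPM in cDC1 and 755, 903 and 948 CPM in cDC2 (3.66 ± 0.98, adjusted p = 0.02), and lost its call without any 1 cDC1 library with LPS (adjusted p up to 0.102). Isg15, a ubiquitin-like modifier, had 86.2, 24.2 and 32.9 CPM against 87.9, 398 and 180 CPM (2.20 ± 0.62, adjusted p = 0.0264), and lost it without replicate 2 or 3 of cDC1 or replicate 5 of cDC2 with LPS (adjusted p up to 0.2). Gbp7 had 34.2, 37.2 and 40.8 CPM against 196, 209 and 224 CPM (2.49 ± 0.71, adjusted p = 0.0285), lost without any 1 library other than replicate 4 of cDC2 (adjusted p up to 0.115). Bst2 had 72.1, 60.8 and 93.1 CPM against 170, 486 and 331 CPM (2.12 ± 0.53, adjusted p = 0.0114), lost without replicate 1 or 2 of cDC1 or replicate 5 of cDC2 with LPS (adjusted p up to 0.066). Its interaction of 3.78 ± 0.75 (adjusted p = 0.0111) was kept with each of the 12 libraries left out. In these 4 genes the groups did not overlap. Ifit1, an antiviral protein that binds foreign RNA, was not called (1.93 ± 0.84, adjusted p = 0.177).

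Promoters of these genes were read from the RefSeq table (GRCm38.p6), 250 bases before to 50 bases after each start, for 9428 of the 12463 tested genes. The letters GAAANNGAA on either strand, the core of the element that interferon-activated factors bind, were in 60% of the promoters of the tested interferon-stimulated genes and in 7.65% of all 12019 promoters. Among the members called higher in mature cDC2 they were in 6 of 13 promoters (46.2%), a lower share than in the whole list. They were in 11.3% of promoters of genes higher in mature cDC2 and in 9.51% of those lower. Stretches are shown for the 5 called members with a match before the start. In Cmpk2, Ifi44, Ifit2, Irf7 and Isg20, also called, no match lay in the 250 bases before the start. Capitals mark the match or run of overlapping matches, each stretch is 5′ to 3′ on the gene's strand, and none overlaps an exon in GENCODE M21.
Isg15, chr4:156200851-156200921, minus strand: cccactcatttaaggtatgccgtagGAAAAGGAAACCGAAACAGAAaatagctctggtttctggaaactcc
Bst2, chr8:71537563-71537627, minus strand: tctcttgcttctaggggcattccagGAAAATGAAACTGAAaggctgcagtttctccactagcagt
Irgm2, chr11:58214888-58214946, plus strand: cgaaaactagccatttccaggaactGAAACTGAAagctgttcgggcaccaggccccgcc
Gbp7, chr3:142530259-142530317, plus strand: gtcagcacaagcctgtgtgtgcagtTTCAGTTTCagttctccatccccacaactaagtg
Rsad2, chr12:26456538-26456596, minus strand: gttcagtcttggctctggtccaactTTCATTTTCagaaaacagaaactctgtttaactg
The stretch of Isg15 held 3 overlapping matches and that of Bst2 held 2, while the other 3 stretches held 1 each. Matches elsewhere in these promoters are not counted here. The first base of the capitals lay 78 bases before the start in Isg15, 130 in Bst2, 64 in Irgm2, 52 in Gbp7 and 119 in Rsad2. A match is a description of the letters, not of a bound factor.

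**Figure D3:**
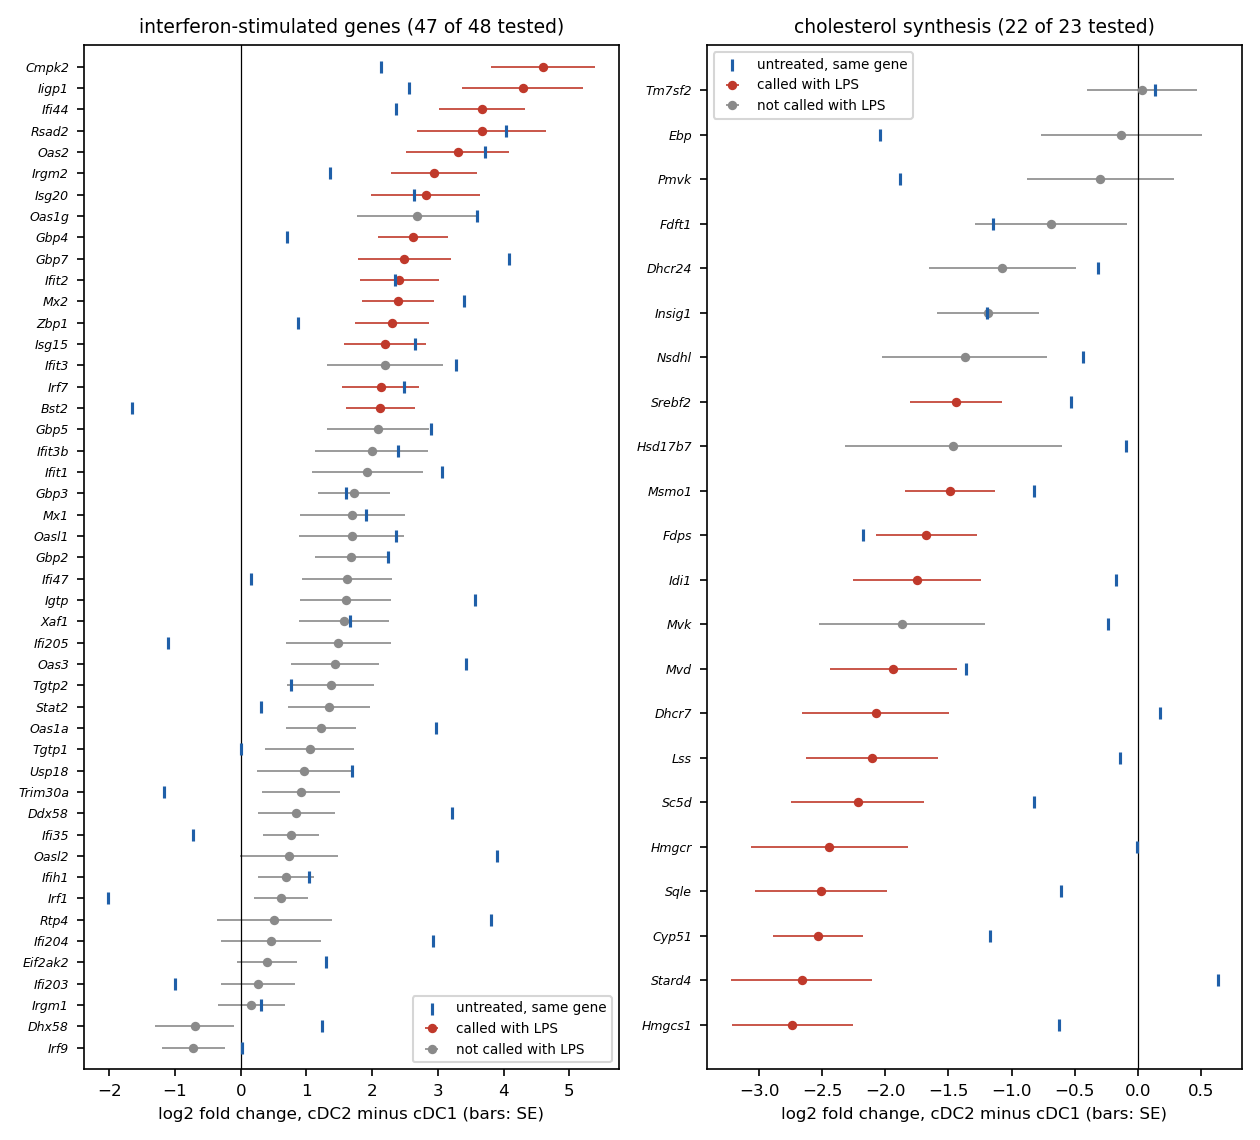
Log2 fold change (cDC2 minus cDC1, x axis) of tested interferon-stimulated genes (left, 47 of 48) and cholesterol synthesis genes (right, 22 of 23) with LPS, as points with SE bars and red where called, and without treatment as blue ticks. On the left 15 genes are called higher in cDC2 and on the right 13 are called lower, from 1.65 and -1.68 as list medians.

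MHC class I genes present peptides to CD8 T cells. Of 22 tested, 6 were higher in mature cDC2 (H2-K1, H2-Q4, H2-Q6, H2-Q7, H2-T22 and Nlrc5) and none was lower in edgeR or DESeq2 (8 and 0 at an unadjusted p under 0.05), with a median of 0.58. The count was 2 without replicate 1 and 3 without replicate 2 of cDC1 with LPS. Without treatment 1 was higher and 4 lower. H2-Q7 had 34.8, 38.4 and 54.9 CPM in cDC1 and 196, 347 and 317 CPM in cDC2 (2.75 ± 0.50, adjusted p = 0.000773), though the near-identical H2-Q genes may share reads. H2-K1, a classical class I chain, had 425, 533 and 724 CPM against 1177, 1925 and 1605 CPM (1.48 ± 0.36, adjusted p = 0.00995), and lost its call without replicate 1 of cDC1 with LPS (adjusted p = 0.0722). B2m, the shared light chain, had 435, 996 and 948 CPM against 1124, 2435 and 1495 CPM and was not called (adjusted p = 0.261).

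MHC class II genes present peptides to CD4 T cells, and 4 of 16 tested were lower in mature cDC2 (H2-Eb1, H2-DMb2, H2-Oa and H2-Ob), while Cd68, a lysosomal protein on that list, was higher. The count of 4 was 2 without replicate 1 of cDC1 or replicate 6 of cDC2 with LPS. Without treatment 6 were lower and 0 higher, and 2 were lower in both states. H2-Oa, a chain of the H2-O complex that restrains peptide loading, had 22.5, 12.4 and 15.6 CPM in cDC1 and 1.02, 1.08 and 1.95 CPM in cDC2 (-3.73 ± 0.71, adjusted p = 0.00117), and it persisted from -3.73 ± 0.66 without treatment. H2-DMb2, a chain of the peptide loading factor H2-M, had 97.3, 48.4 and 40 CPM against 11.8, 14.5 and 12.7 CPM (-2.26 ± 0.46, adjusted p = 0.00209), and persisted from -1.78 ± 0.52. H2-Ab1, a chain of the presenting molecule itself, had 11400, 4379 and 2943 CPM against 3383, 2252 and 1404 CPM, values that overlapped (-1.41 ± 0.48, adjusted p = 0.0719). Cd74, the invariant chain, had -0.16 ± 0.36 (adjusted p = 0.859).

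Of 20 inflammasome and pyroptosis genes, Nlrp3, Mefv and P2rx7 were higher in mature cDC2 (5.58% of all tested genes were), and all 3 persisted from the untreated state. Nlrp3, the sensor of membrane damage that assembles an inflammasome, had 37.6, 66.1 and 69.9 CPM in cDC1 and 437, 237 and 281 CPM in cDC2 with LPS (2.46 ± 0.54, adjusted p = 0.00402), beside 2.71 ± 0.58 without treatment. Mefv, which encodes the sensor pyrin, had 3.92, 4.13 and 2.35 CPM against 80.7, 44.6 and 37.1 CPM (3.97 ± 0.76, adjusted p = 0.00122). P2rx7, the receptor for extracellular ATP, had 3.65, 5.32 and 6.17 CPM against 74.1, 9.68 and 15.6 CPM (2.75 ± 0.85, adjusted p = 0.0452), lost without replicate 4 of cDC2 or any 1 library of cDC1 with LPS (adjusted p up to 0.35). The count of the list was 5 without replicate 5 of cDC2 with LPS, and DESeq2 called 7. Casp1 and Gsdmd, the protease and the pore of this pathway, were not called, at 1.54 ± 0.59 and 1.08 ± 0.48 (adjusted p of 0.113 and 0.18).

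Of 29 C-type lectins, Fc and scavenger receptors 8 were higher in mature cDC2 and Clec9a was lower, and 5 of the 8 persisted. Msr1, scavenger receptor A, had 5.7, 1.77 and 1.76 CPM in cDC1 and 100, 123 and 85 CPM in cDC2 (4.88 ± 0.67, adjusted p = 5.59e-05). Clec4e, which encodes the mycobacterial glycolipid receptor Mincle, had 63.8, 33.7 and 35.2 CPM against 380, 816 and 891 CPM (3.96 ± 0.93, adjusted p = 0.00782). Fcgr2b, the inhibitory receptor for IgG, had 19.1, 9.45 and 15.9 CPM against 99.1, 158 and 127 CPM (3.09 ± 0.61, adjusted p = 0.0017), and Fcgr3, an activating one, had 1 count in the cDC1 libraries and 3.07, 9.68 and 6.83 CPM in cDC2, a ratio of 105 with a counting interval of 17.4 to 4260 (adjusted p = 0.000969). All these groups were apart. Among pattern recognition receptors 3 of 28 were higher (Tlr3, Tlr8 and Irak3), beside 5.58% of all tested genes. This count was 1 without replicate 1, and 0 without replicate 2 or without replicate 3, of cDC1 with LPS. Tlr4, the LPS receptor, had 8.2, 6.5 and 5.58 CPM against 29.1, 9.14 and 31.2 CPM with LPS (1.74 ± 0.60, adjusted p = 0.0755), and was higher in untreated cDC2 (2.35 ± 0.60, adjusted p = 0.0131). Its co-receptor Cd14 overlapped with LPS (1.72 ± 0.56, adjusted p = 0.0606). None of 22 genes of NF-kB subunits and feedback was called with LPS in edgeR or DESeq2, with 2 higher and 2 lower at an unadjusted p under 0.05. Without replicate 4 of cDC2 with LPS, 1 was higher and 2 were lower in edgeR.

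**Figure D4:**
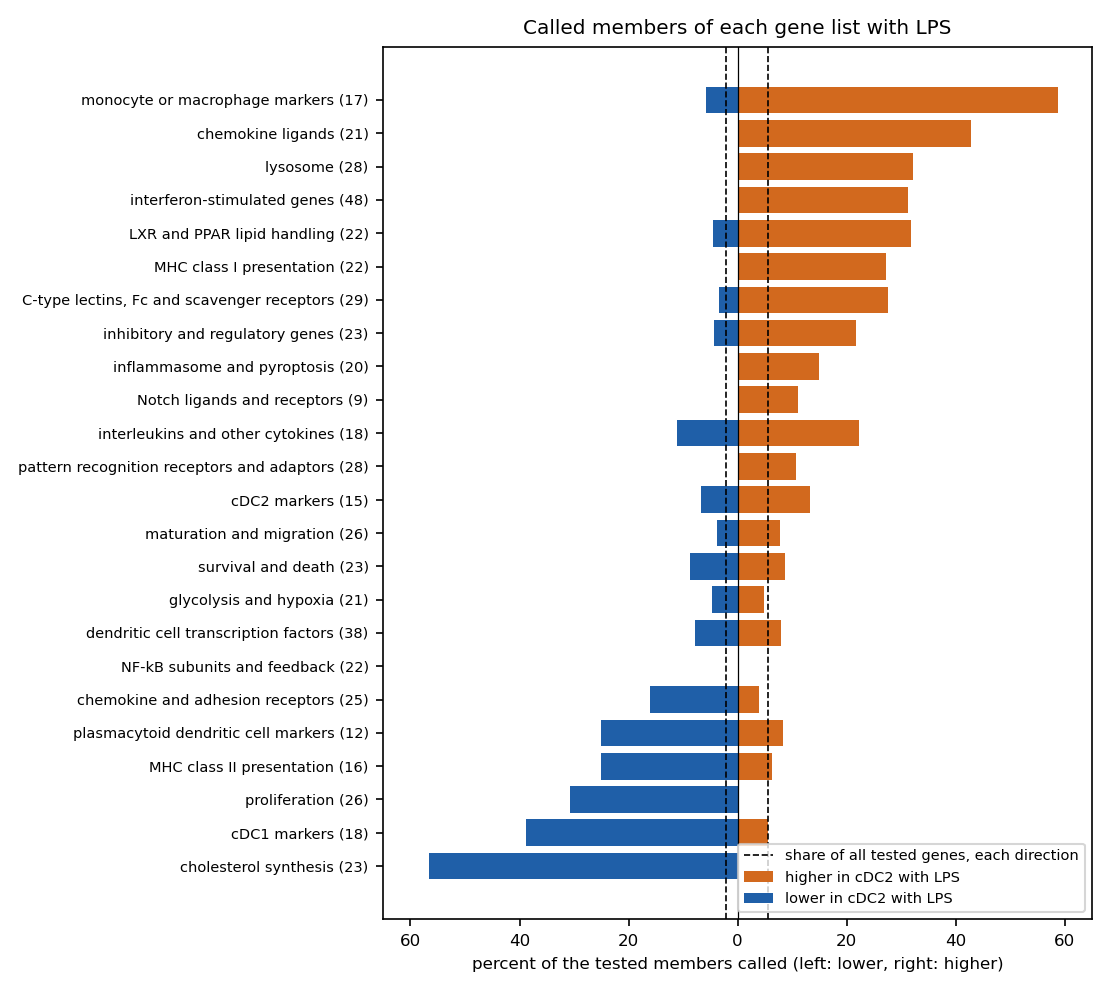
Share of the tested members of each plotted gene list (rows, number tested in brackets; the matrix and the amino acid lists, drawn up after the data were seen, are not plotted) that were called higher (orange, right) or lower (blue, left) in cDC2 with LPS, in percent on the x axis. Dashed lines give the same shares over all 12463 tested genes, 5.58% and 2.21%, and of the plotted lists the monocyte or macrophage and chemokine lists reach farthest to the right while cholesterol synthesis and the cDC1 markers reach farthest to the left.

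Markers of other cell types moved with the subset. Of 17 tested monocyte or macrophage markers, 10 were higher in mature cDC2, among them C1qa, C1qb, C1qc, Fcgr1, Mertk, Csf1r, F13a1, Apoe and Vcan, and Ccr2 was lower, with a median of 3.02. The summed level was 1030 to 2280 CPM in cDC1 and 3640 to 9760 CPM in cDC2 with LPS, and 2310 to 6050 against 9310 to 10300 CPM without treatment. The part of such cells in any difference given here was not tested. C1qb, a chain of the complement component made by macrophages, had 4.54, 7.09 and 3.82 CPM in cDC1 and 60.3, 174 and 127 CPM in cDC2 with LPS (4.59 ± 0.54, adjusted p = 7.16e-06). Fcgr1, the high-affinity IgG receptor, had 1.87, 0.591 and 0.294 CPM against 46.5, 114 and 69.3 CPM (6.03 ± 0.69, adjusted p = 5.06e-06). The groups did not overlap in either gene. The change of the C1qb difference with LPS was 3.22 ± 0.67 (adjusted p = 0.0146), and it was no longer called without replicate 1 of cDC1 with LPS (adjusted p = 0.0562).

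Of 12 tested markers of plasmacytoid dendritic cells, which make type I interferon, 3 were lower in mature cDC2 (Siglech, Ly6d and Spib) and Bst2 was higher, against 9 lower without treatment. The list summed to 283 to 480 CPM in cDC1 and 327 to 671 CPM in cDC2 with LPS. Without treatment the list summed to 678 to 852 and 63.4 to 154 CPM. Bst2, also an interferon-stimulated gene, is part of these sums, and its higher level in mature cDC2 is given above. Siglech and Ly6d had no count in mature cDC2, and the list median with LPS was -0.63. The sums therefore do not show that the other markers were higher in mature cDC2. The count of 3 was 0 without replicate 1 and 1 without replicate 2 of cDC1, and 1 without replicate 6 of cDC2 with LPS. Summed levels of the granulocyte, B cell, T or NK cell and erythroid lists were at most 12.2 CPM in each of the 6 libraries with LPS. In untreated cells the granulocyte list summed to 48 to 206 CPM in cDC1 and 11 to 14.2 CPM in cDC2. The mast cell or basophil list summed to 114 to 177 CPM in cDC1 and 217 to 258 CPM in cDC2 with LPS, with none of its 8 tested genes called in edgeR or DESeq2 and 1 at an unadjusted p under 0.05. Its sums without treatment were 97 to 172 CPM in cDC1 and 7.75 to 14.2 CPM in cDC2. Of the 10 genes on this list, 5 had no count in mature cDC2 (Mcpt8, Cpa3, Fcer1a, Ms4a2 and Il4). In mature cDC1, 3 had none, and the median log2 fold change with LPS was -1.18. The higher sum in mature cDC2 thus came from a part of the list only. Ebf1, a transcription factor on the B cell list, was called higher in cDC2 (adjusted p = 0.00224), with no count in mature cDC1.

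Matrix genes such as Col3a1, Fkbp10 and Col6a2 were among the 12 genes with the highest fold changes, so a list of 24 matrix and mesenchymal genes was drawn up after these values were seen and serves only as a description. Of the 24, 21 were called higher in mature cDC2, with a median log2 fold change of 5.56, and 12 had an interaction call toward cDC2. Without treatment none was called in edgeR, with 4 higher and 0 lower at an unadjusted p under 0.05 and a median of 0.78. The summed level was 19 to 192 CPM in the cDC1 libraries with LPS, 2890 to 4710 CPM in cDC2 with LPS, 1330 to 6250 CPM in untreated cDC1 and 4230 to 5600 CPM in untreated cDC2. Mature cDC1 lay below the other 3 groups, which overlapped. Fkbp10, a folding factor of collagen, had no count in mature cDC1 and 26.6, 30.7 and 56.6 CPM in mature cDC2, at least 39-fold higher (adjusted p = 0.000153). Without treatment it had 18, 55.3 and 70.8 CPM against 58, 73.7 and 48.5 CPM. Sparc, a matrix glycoprotein, had 0, 1.18 and 1.76 CPM against 23.5, 80.7 and 74.2 CPM with LPS (6.40 ± 1.04, adjusted p = 0.000298), and 33.5, 103 and 210 against 89, 85.8 and 48.5 CPM without it. Both interactions were called (adjusted p of 0.00816 and 0.00755). Col1a1, the main collagen of connective tissue, had 0, 4.13 and 4.99 CPM against 378, 38.2 and 118 CPM with LPS (6.13 ± 1.16, adjusted p = 0.00115), and Wnt5a, a signal often made by stromal cells, was at least 17.8-fold higher (adjusted p = 0.0019). Whether such RNA came from the dendritic cells or from other cells of the culture was not tested.

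**Figure D5:**
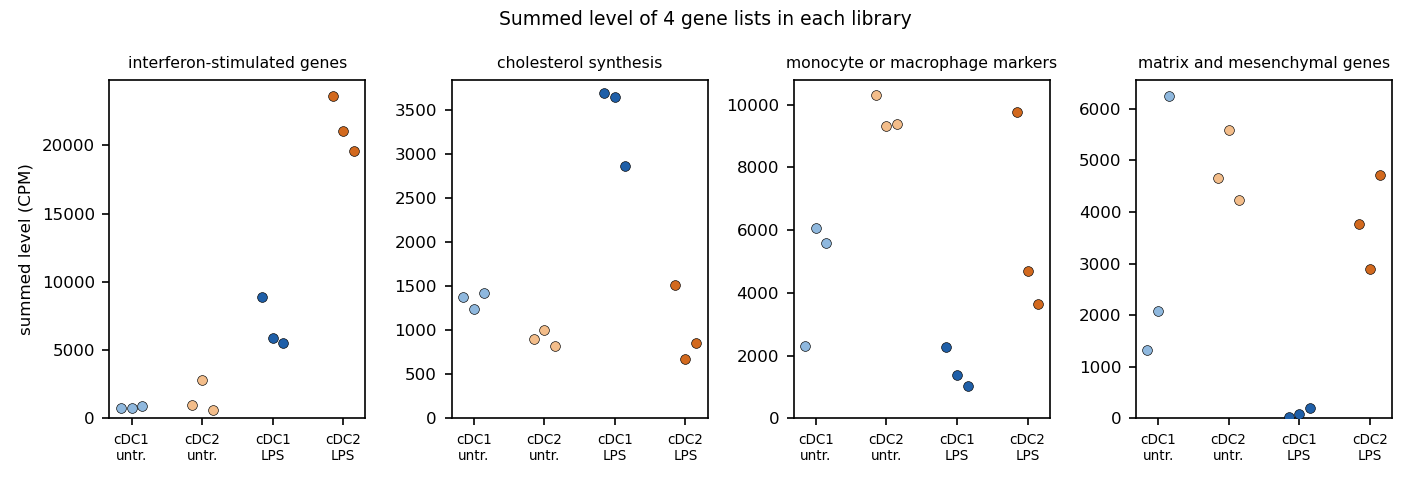
Summed level in CPM (y axis) of the interferon-stimulated, cholesterol synthesis, monocyte or macrophage, and matrix and mesenchymal lists in each of the 12 libraries of untreated and LPS-treated cDC1 and cDC2. Interferon-stimulated genes are highest in mature cDC2 (19600 to 23600 CPM), cholesterol synthesis genes are highest in mature cDC1 (2870 to 3690 CPM), and matrix genes are lowest in mature cDC1 (19 to 192 CPM).

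Lysosome genes encode the acid hydrolases and pumps that degrade endocytosed material, and 9 of 28 were higher in mature cDC2 and none was lower in edgeR (1 lower in DESeq2 and at an unadjusted p under 0.05). The count of 9 was 5 without replicate 1 or replicate 2 of cDC1 or replicate 5 of cDC2 with LPS. Ctsb, the protease cathepsin B, had 451, 422 and 642 CPM in cDC1 and 2844, 13000 and 11710 CPM in cDC2 (4.18 ± 0.47, adjusted p = 3.96e-06). Ctsd, cathepsin D, had 221, 225 and 317 CPM against 1016, 2427 and 2573 CPM (2.98 ± 0.43, adjusted p = 9.31e-05). In both, replicate 4 was the lowest cDC2 library and still above cDC1. Ctsc, which activates granule proteases, had 131, 158 and 115 CPM against 924, 787 and 846 CPM (2.66 ± 0.32, adjusted p = 1.13e-05). Without treatment it had 66.1, 128 and 97 CPM against 80.4, 102 and 56 CPM and was not called, and the change of 2.92 ± 0.44 was (adjusted p = 0.00126).

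Of 22 genes of lipid handling under LXR and PPAR, 7 were higher in mature cDC2 (Abca1, Nr1h3, Apoe, Lpl, Fabp4, Plin2 and Npc2) and Scd2 was lower. The list median was 1.18. Without treatment 8 were higher and 0 lower, with a median of 0.99, and 2 were higher in both states. The summed level was 1030 to 1290 CPM in cDC1 and 2760 to 6300 CPM in cDC2 with LPS. It was 2140 to 4140 against 6240 to 7060 CPM without treatment. Abca1, the pump that exports cholesterol, had 2.14, 6.5 and 4.7 CPM in cDC1 and 103, 83.9 and 141 CPM in cDC2 (4.73 ± 0.82, adjusted p = 0.000503). Nr1h3, which encodes the sterol-sensing receptor LXR alpha, had 71.5, 38.4 and 38.2 CPM against 600, 484 and 352 CPM (3.27 ± 0.57, adjusted p = 0.000515). Npc2, which hands cholesterol out of the lysosome, had 166, 129 and 135 CPM against 448, 676 and 440 CPM (1.86 ± 0.36, adjusted p = 0.00125), with a called change from the untreated state (2.46 ± 0.50, adjusted p = 0.0122). The groups were apart in all 3.

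Cholesterol synthesis genes went the other way. Of 23 tested, 13 were lower in mature cDC2 and none was higher in edgeR or DESeq2, with 17 lower and 0 higher at an unadjusted p under 0.05. All 3 cDC2 libraries were below all cDC1 libraries for 18, as for 13.5% of all tested genes, and the median was -1.68. The summed level was 2870 to 3690 CPM in mature cDC1 and 668 to 1520 CPM in mature cDC2, and 1240 to 1430 against 825 to 1010 CPM without treatment, where 3 genes were lower. Of the 13, 2 persisted, and Stard4 alone had an interaction call. The count of 13 was 5 without replicate 5 and 8 without replicate 6 of cDC2 with LPS, and 2 with all 36 libraries in the fit. Hmgcs1, which makes the precursor of mevalonate, had 687, 722 and 451 CPM in cDC1 and 179, 41.4 and 56.6 CPM in cDC2 with LPS (-2.74 ± 0.48, adjusted p = 0.000516). Cyp51, the lanosterol demethylase, had 224, 229 and 185 CPM against 53.7, 23.1 and 33.2 CPM (-2.53 ± 0.35, adjusted p = 6.63e-05), and Sqle, the squalene epoxidase, had 213, 151 and 137 CPM against 57.7, 8.07 and 21.5 CPM (-2.51 ± 0.52, adjusted p = 0.00269). In each, replicate 4 of cDC2 was the highest of its group and below all cDC1 libraries. Without treatment the log2 fold changes were -0.63 ± 0.46, -1.17 ± 0.35 and -0.61 ± 0.51, of which that of Cyp51 was called.

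Srebf2, the transcription factor that drives this pathway, had 474, 514 and 469 CPM in cDC1 and 232, 104 and 201 CPM in cDC2 (-1.44 ± 0.37, adjusted p = 0.0134), lost without replicate 2 of cDC1 or replicate 5 of cDC2 with LPS (adjusted p up to 0.0799). Sc5d, a desaturase of the late steps, had 74.8, 76.8 and 77 CPM against 24.5, 11.3 and 12.7 CPM (-2.22 ± 0.53, adjusted p = 0.00798), lost without replicate 5 or 6 of cDC2 with LPS (adjusted p up to 0.0578). Lss, the lanosterol synthase, had 65.2, 60.2 and 50.8 CPM against 21.5, 4.84 and 14.7 CPM (-2.11 ± 0.52, adjusted p = 0.011), lost without replicate 5 of cDC2 with LPS (adjusted p = 0.0694). Mvd, a decarboxylase of the mevalonate part, had 172, 67.3 and 64.3 CPM against 44, 19.9 and 14.7 CPM (-1.94 ± 0.51, adjusted p = 0.0162), lost without replicate 1 of cDC1 or replicate 5 or 6 of cDC2 with LPS (adjusted p up to 0.183). The groups were apart in all 4.

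CCAAT, the letters bound by NF-Y, a partner of sterol-regulated transcription, were on either strand in the promoters of all 16 cholesterol synthesis genes in the RefSeq table, 84.2% of their promoters (81.8% for the members called lower), against 37.8% of all promoters. CCAAT had been put in the search as a neutral motif, not as one chosen for sterol genes. It was in 46% of promoters of genes lower in mature cDC2 and in 31.1% of those higher. The letters TCACNCCAC, a form of the sterol element chosen after the data were seen, were in 1 of the 16 genes (Hmgcs1) and in 1.09% of all promoters. Stretches around CCAAT are shown for 5 called genes, with the match in capitals (ATTGG on the opposite strand), written as above and outside exons in GENCODE M21.
Hmgcs1, chr13:119690281-119690335, plus strand: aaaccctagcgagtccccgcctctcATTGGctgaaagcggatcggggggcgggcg
Lss, chr10:76531518-76531572, plus strand: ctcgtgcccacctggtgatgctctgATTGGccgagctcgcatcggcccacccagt
Sc5d, chr9:42264301-42264349, minus strand: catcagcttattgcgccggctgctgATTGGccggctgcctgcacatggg
Srebf2, chr15:82147109-82147163, plus strand: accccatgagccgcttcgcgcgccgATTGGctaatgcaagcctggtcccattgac
Mvd, chr8:122443423-122443507, minus strand: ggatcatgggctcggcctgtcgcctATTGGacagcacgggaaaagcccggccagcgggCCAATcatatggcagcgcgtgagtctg
The stretch of Mvd held a match on each strand and the other 4 stretches held 1, all on the opposite strand. Matches elsewhere in these promoters are not counted here. Of the other letters searched on either strand, GGAANNGAA was in 6.82% of promoters of genes higher in mature cDC2 against 7.42% of all, GGGANTTTC in 1.5% against 1.02%, TGANTCA in 8.87% against 5.36% and CAGGTG in 18.7% against 17%.

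Of 26 proliferation genes 8 were lower in mature cDC2, and none was higher in edgeR, DESeq2 or at an unadjusted p under 0.05. Without treatment 9 were lower, and 4 were lower in both states. The median was -1.60, and the count was 4 or 5 without any 1 library other than replicate 4 of cDC2 with LPS. Stmn1, which regulates microtubules of dividing cells, had 21, 21.3 and 21.7 CPM in cDC1 and 0.511, 4.3 and 0 CPM in cDC2 (-3.56 ± 0.62, adjusted p = 0.000503). Top2a, the topoisomerase of S and G2 phase, had 68.2, 53.1 and 40 CPM against 15.3, 5.38 and 9.76 CPM (-2.40 ± 0.51, adjusted p = 0.00304). Mki67, the proliferation antigen, had 29.1, 41.9 and 45.8 CPM against 28.1, 10.2 and 16.6 CPM and was not called (adjusted p = 0.273).

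Of 38 transcription factors of dendritic cells 3 were higher in mature cDC2, Nr4a1 and Egr1 among them, and 3 were lower (Irf8, Spib and Bcl11a), and of 25 chemokine and adhesion receptors 1 was higher (S1pr1) and 4 lower (Ccr2, Itgae, Itgax and Cadm1). Each of these counts of 3 and 4 was 1 without replicate 1 or replicate 2 of cDC1, or replicate 5 or replicate 6 of cDC2, with LPS. The 3 lower factors were 5 without replicate 4 of cDC2, and the 4 lower receptors were 2 without replicate 3 of cDC1. Of 23 survival genes 2 were higher and 2 lower, and of 21 glycolysis genes 1 was higher and 1 lower. Beside all these lists, 5.58% of all tested genes were higher and 2.21% lower. Of 9 Notch ligands and receptors Notch1 alone was called in edgeR (3 were in DESeq2), higher in mature cDC2 at 69.5, 148 and 150 CPM against 18, 30.1 and 40.8 CPM (2.05 ± 0.44, adjusted p = 0.0036). Dll4, a Notch ligand induced by TLR signals, had 216, 141 and 154 CPM in cDC1 and 227, 132 and 222 CPM in cDC2, values that overlapped (0.18 ± 0.73, adjusted p = 0.932). S1pr1, the receptor for sphingosine 1-phosphate in cell egress, had 0.713, 1.18 and 0.294 CPM against 3.58, 105 and 49.8 CPM (6.25 ± 1.32, adjusted p = 0.00323), with replicate 4 again the lowest cDC2 library. The difference of Epb41l1, a membrane skeleton protein, persisted and also widened on the log2 scale (interaction 4.07 ± 0.79, adjusted p = 0.0104). Levels were 0.535, 0 and 0 against 41.9, 61.3 and 62.5 CPM with LPS and 26.6, 12.9 and 36.1 against 272, 227 and 209 CPM without it. Both subsets were thus lower with LPS, and mature cDC1 was near 0, where a fold is uncertain.

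The same subsets given LPS with PGPC, 3 other libraries on each side, served as a second set of mature cells. There 884 genes (7.09%) were called, 571 higher (4.58%) and 313 lower (2.51%) in cDC2, a count that dropped to 404 without replicate 4 and 534 without replicate 5 of cDC2, and to 565 without replicate 2 and 580 without replicate 3 of cDC1. Of the genes higher in cDC2 with LPS, 336 were also higher with LPS and PGPC (48.3% of the LPS calls and 58.8% of the other), and of those lower 83 were (30.2% and 26.5%), with none called in opposite directions. Ltb, Cadm1, Naaa, Cd274, Slc7a8 and Il1rn were called in the same direction, at log2 fold changes of -3.26 ± 0.51, -1.98 ± 0.47, -2.17 ± 0.58, 2.11 ± 0.46, 3.94 ± 0.47 and 5.45 ± 0.94. Of the interferon-stimulated genes 19 were higher, 10 of them also with LPS alone, and of the cholesterol synthesis genes 2 were lower, against 15 and 13 with LPS alone. Hmgcs1 had -0.61 ± 0.45 with LPS and PGPC (adjusted p = 0.487), Nlrp3 had 0.71 ± 0.52 (adjusted p = 0.483), Bcl2l1 had 0.67 ± 0.39 (adjusted p = 0.363) and H2-K1 had -0.37 ± 0.35 (adjusted p = 0.622). Whether the difference with LPS and PGPC differs from that with LPS alone was not tested.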

How the data were processed

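The authors deposited expected counts per gene symbol, made with RSEM on GRCm38 after bcl2fastq 2.2, per the submitters' processing notes. The sources used here do not give the RSEM version, aligner or annotation. Per the labels' protocols, each Smart-Seq2 reaction used RNA worth about 2000 cells and libraries were made with Nextera XT. Smart-Seq2 reads carry no strand, so overlapping and antisense genes cannot be told apart. The table held 53299 symbols in 36 columns, 0 of them unmapped. Since 21% of nonzero values were not whole, expected counts were rounded.

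The members of the comparison, the gene lists and the rule for named genes were chosen with earlier results of these data known. The rule took called genes without overlap between groups and with at least 5 CPM (the 12 highest and 12 lowest fold changes), 4 genes per list, a panel of known genes, and the largest interactions and firmest persisting genes. The text gives some of these genes, and further list members chosen after their values were seen. A few genes stay in the fits and counts but are not reported here by name. Libraries with alum and replicate 6 of cDC2 with PGPC were left out, leaving 23 libraries in 8 groups. Genes passed filterByExpr (minimum count 10, minimum total 15). TMM factors and group contrasts were used in edgeR 4.0.16 (robust quasi-likelihood fit, with limma 3.58.1 and R 4.3.3), with Benjamini-Hochberg adjustment over 12463 genes. The common biological coefficient of variation was 0.545. Alternatives were other scaling, no filter, DESeq2 1.42.0, other libraries in the fit, a replicate block and each library left out. On simulated data for cDC2 against cDC1 with LPS (12054 genes), 59% of genes changed 4-fold and 95% of genes changed 8-fold were called, with 6 false calls among 160. The changed genes were drawn only from genes above a floor of mean level, and no library was made to stand apart. These shares therefore do not cover genes of low level.

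A fold against a group with no count is a lower bound from a floor of 3 counts per library, averaged over the group (0.973 CPM in cDC1 and 2.03 CPM in cDC2 with LPS). With 1 to 3 counts in a group, the ratio of summed counts is given with an exact 95% counting interval. Intervals and floors cover counting error only. Promoters came from the RefSeq table, exons from GENCODE M21, and figures were drawn with matplotlib 3.10.9.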

Additional observations from a re-analysis of the deposited data

Results flagged for a closer look

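The difference between the subsets itself differed between the LPS and the untreated libraries for 166 tested genes. This rests on the interaction term in edgeR's quasi-likelihood test with Benjamini-Hochberg adjustment. The 12 genes below are a part of these, picked from genes named in the text. Other genes named above, such as Enpp4, Sepsecs and Stard4, had such a call too. Groups of 3 libraries are too small for a test of single outlying libraries. Values are the change of the cDC2 minus cDC1 log2 fold change.

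The change went toward cDC2 for Fkbp10 (10.44), Cxcl14 (8.42), Cst7 (7.15), Sparc (7.01), Epb41l1 (4.07), Bst2 (3.78), C1qb (3.22), Ctsc (2.92) and Npc2 (2.46). It went toward cDC1 for Bcl2l1 (-3.35), Ccl22 (-2.98) and Tnf (-2.93). Fkbp10 and Cxcl14 had no count in mature cDC1, so the size of their fitted change depends on the prior count. Levels near 0 also make the size uncertain for Cst7 (in untreated cDC2) and for Epb41l1 and Sparc (in mature cDC1). Over the settings and left-out libraries their changes ran from 6.27 to 11.53, from 3.68 to 8.02 and from 5.86 to 8.76. The calls of 9 of the genes were kept with each of the 12 libraries left out in turn, while those of C1qb, Ccl22 and Tnf were lost without the libraries named with their values. With all 36 libraries in the fit Cst7 and Cxcl14 kept the call and the other 10 lost it.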

How the results depend on the processing

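No gene of the 191 called ones in the lists or named changed direction in a setting. Of these, 108 kept their call with each of the 6 libraries left out and 64 also kept it in every planned setting. The weakest points were the fit of all 36 libraries and single left-out libraries.

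With all 36 libraries the calls were 300 with LPS, 118 untreated, 6 in the interaction, 143 with LPS and PGPC, and 29 persisting. The interaction had 425 calls with no filter and 432 with DESeq2, where 471 differences persisted. Leaving out 1 library each gave 497 to 1395 calls with LPS, 547 to 1194 untreated, 75 to 442 in the interaction, 404 to 844 with LPS and PGPC, and 172 to 310 persisting. Untreated calls were 670 without replicate 2 of cDC1, 721 without replicate 4 and 547 without replicate 5 of cDC2. Interaction calls were 75 and 92 without replicates 1 and 2 of cDC1 with LPS, 442, 93 and 109 without replicates 4, 5 and 6 of cDC2 with LPS, and 83, 77 and 98 without those of untreated cDC2. The other settings stayed within 1.5 times of the counts reported. Settings for LPS with PGPC, and those without CT010467.1, were chosen after seeing the data. With all 36 libraries 3 of the 7 cDC1 markers called lower were called, and of the members called higher 4 of 9 chemokine ligands, 0 of 6 MHC class I genes, 1 of 7 genes of lipid handling, 2 of 9 lysosome genes and 13 of 21 matrix genes. The 8 proliferation and 7 amino acid genes called lower were 3 each. The 3 inflammasome genes called higher were 7 in DESeq2. The causes were not tested.

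No paired analysis was possible because cDC1 carry replicate numbers 1 to 3 and cDC2 4 to 6, so the subsets share none. With the replicate block nested in cell type, 1043 genes were called with LPS, 1258 untreated, 163 in the interaction (136 of them also without the block), 897 with LPS and PGPC, and 326 persisted. The interaction of Tnf lost its call under the block. Same-numbered libraries of a cell type had correlations of deviations of -0.041 to 0.052. These are taken over all tested genes, low counts included, around means of 3 libraries. They therefore cannot show whether same-numbered libraries share a source.

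The depth of 980502 counts in the shallowest LPS library and the spread of 3 libraries a group bear on what the comparison can detect, and neither was varied in the simulation.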

Other observations

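Genes of amino acid synthesis and other targets of ATF4, the transcription factor of the amino acid and stress response, were listed after their values were seen, and the list serves only as a description. Of 18, 7 were lower in mature cDC2 (Asns, Phgdh, Shmt2, Pck2, Trib3, Chac1 and Aldh18a1), with a median log2 fold change of -1.20, and none was higher in edgeR or DESeq2 (1 at an unadjusted p under 0.05). Without treatment 3 were lower and 1 higher, and with LPS and PGPC none was lower and 2 were higher in edgeR.

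Shmt2, the mitochondrial serine hydroxymethyltransferase, had 180, 139 and 105 CPM in cDC1 and 32.7, 25.3 and 23.4 CPM in cDC2 with LPS (-2.38 ± 0.41, adjusted p = 0.000503 in edgeR). Asns, which makes asparagine, had 137, 122 and 137 CPM against 23.5, 38.2 and 27.3 CPM (-2.15 ± 0.39, adjusted p = 0.000638 in edgeR). Phgdh, the first enzyme of serine synthesis, had 117, 85 and 74.6 CPM against 21.5, 12.4 and 11.7 CPM (-2.59 ± 0.47, adjusted p = 0.000646 in edgeR). None of the 3 overlapped between the subsets. With LPS and PGPC their log2 fold changes were -0.06 ± 0.39, -0.29 ± 0.36 and -0.05 ± 0.42, and none was called in edgeR. Whether these differ from the values with LPS alone was not tested.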
